A study of Mus musculus with 14 samples.

Results

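The 6 cytokine genes *Il2*, *Il3*, *Csf1*, *Csf2*, *Lif* and *Osm* were examined in RNA-Seq data from activated mouse CD4+ T cells. They were found by gene name or, where a library listed no row under the name, by a locus at the same position. They are 6 of 31116 genes with a value in each of the 14 samples. All samples were CD4+ T cells of C57BL/6 mice, with spleen given as the tissue in the labels and pooled spleen and lymph nodes as the source of naive cells in the methods of the study. In the first experiment, 4 HDAC1cKO-HDAC2HET samples (*Hdac1* fl/fl *Hdac2* fl/+ *Cd4*-Cre) and 4 WT 3-day samples were compared. Their naive CD4+ T cells had been activated for 3 days with anti-CD3ε and anti-CD28 under nonpolarizing (Th0) conditions with recombinant human IL-2 in the medium, and viable cells were then sorted. In the second experiment, 3 HDAC1cKO samples (*Hdac1* fl/fl *Cd4*-Cre) were compared with 3 WT restimulated samples. Here the 3-day activation was followed by 12 hours on anti-CD3. *Cd4*-Cre is active in T cells from the double-positive thymocyte stage, so both CD4+ and CD8+ lineage cells carry the deletion. The ages and sexes of the donor mice of single samples were not given in the sources used here.

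IL-2 is the classical growth factor of activated T cells, and its gene is silent in resting T cells and switched on by antigen receptor signals through NFAT, AP-1 and NF-kB. IL-3 and GM-CSF, the product of *Csf2*, are made by activated T cells and act on myeloid cells through receptors that share the common beta chain. M-CSF, the product of *Csf1*, drives macrophages through a receptor tyrosine kinase. LIF and oncostatin M, the product of *Osm*, belong to the IL-6 family and signal through gp130, encoded by *Il6st*. HDAC1 and HDAC2 are closely related enzymes that remove acetyl groups from histones, and each can partly stand in for the other.

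The targeted genes matched the labels. *Hdac1* was at 78.1 ± 1.44 FPKM (SD, n = 4) in WT 3-day and 8.3 ± 1.89 (SD, n = 4) in HDAC1cKO-HDAC2HET samples, and at 75.6 ± 4.78 (SD, n = 3) in WT restimulated and 10.1 ± 1.82 (SD, n = 3) in HDAC1cKO samples. *Hdac2* was at 59 ± 1.04 and 35.4 ± 1.36 FPKM in the first experiment and at 72.4 ± 8.65 and 80.4 ± 6.91 in the second. FPKM is the number of fragments per kilobase of transcript, scaled to the mapped fragments of the library. The estimated depth was 24000000 to 56000000 fragments per library. The summed FPKM of 6 T cell markers lay between 1100 and 1500 in every group. *Xist*, a transcript of the inactive X chromosome, was at 58.9 to 65.2 FPKM in WT 3-day and 26 to 33.7 in HDAC1cKO-HDAC2HET samples, was under 0.05 FPKM in all 3 HDAC1cKO samples and at 0.0188 in WT restimulated replicate 2, and was at 42.9 and 33.2 in WT restimulated replicates 1 and 3. In the first experiment *Xist* thus separated the genotypes completely, and in the second it was near 0 in all 3 mutant samples and in 1 of 3 WT samples.

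*Il3* and *Csf2* are neighbours on chromosome 11 (mm10), with *Csf2* at 54247271 to 54249667 and *Il3* at 54265303 to 54267277, both on the minus strand and 15635 bp apart with no protein-coding gene between. *Osm* (4236420 to 4241026) and *Lif* (4257557 to 4272514) are neighbours on the same chromosome, both on the plus strand and 16530 bp apart. *Il2* (37120523 to 37125959) and *Csf1* (107741048 to 107760469) lie far apart on the minus strand of chromosome 3. The annotated span of *Il2* overlaps *Adad1*, which was at a mean of 2.52 FPKM over the restimulated samples, so reads in the overlap could not be told apart without strand-specific counting. That of *Csf2* overlaps the predicted gene *Gm12223*, which was listed at 0. The listing differed between genes: *Il2* was listed by name in 7 of 14 libraries, *Il3* in 11, *Csf2* in 12, *Lif* in 10, *Osm* in 2 and *Csf1* in 0, with the other libraries matched by position.

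The 250 bases before the RefSeq start of *Il2*, *Il3* and *Csf2* are shown because these were the member genes that differed most between groups. The sequences are from GRCm38.p6, minus strand, read 5′ to 3′, at chr3:37125955-37126204 for *Il2*, chr11:54267280-54267529 for *Il3* and chr11:54249900-54250149 for *Csf2*. Capitals mark matches to the motifs searched.
Il2: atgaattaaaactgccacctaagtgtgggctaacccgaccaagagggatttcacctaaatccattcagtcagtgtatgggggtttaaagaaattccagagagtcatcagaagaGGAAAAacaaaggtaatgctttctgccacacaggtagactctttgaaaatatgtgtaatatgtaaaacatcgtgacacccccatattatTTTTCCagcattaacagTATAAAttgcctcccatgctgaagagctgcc
Il3: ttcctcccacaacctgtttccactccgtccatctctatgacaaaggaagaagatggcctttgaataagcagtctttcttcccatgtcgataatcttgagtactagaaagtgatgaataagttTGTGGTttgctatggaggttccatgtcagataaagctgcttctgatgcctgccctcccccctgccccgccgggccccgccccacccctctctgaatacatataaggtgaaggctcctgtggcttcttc
Csf2: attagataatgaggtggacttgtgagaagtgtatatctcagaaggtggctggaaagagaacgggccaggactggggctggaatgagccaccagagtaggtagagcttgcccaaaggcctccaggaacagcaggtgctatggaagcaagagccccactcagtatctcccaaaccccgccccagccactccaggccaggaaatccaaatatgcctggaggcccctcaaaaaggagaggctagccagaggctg
The letters searched, on both strands, were GGAAAA for the NFAT core, TGANTCA for AP-1, TGTGGT for RUNX, TTCNNNGAA for the STAT GAS element and TATAAA for the TATA box. The *Il2* window held the NFAT core at positions -137 and -48 from the RefSeq start, the latter on the opposite strand, and the TATA box at -31. The *Il3* window held the RUNX letters at -128. No match was found in the *Csf2* window, whose RefSeq start lies 232 bases upstream of the start in the GENCODE annotation, nor in that of *Csf1*. The libraries listed the *Csf2* locus from the GENCODE start. The bases between the RefSeq and GENCODE starts of *Csf2* were not searched, so the result does not cover them. The *Lif* window held AP-1 at -228 and RUNX at -102. Of 32851 promoter windows of the same length, 20.4% held the NFAT core, 6.75% AP-1, 14% RUNX, 7.02% the STAT GAS element and 12.4% the TATA box. A match describes letters only, not a bound site.

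The order of the levels, which FPKM gives per length of transcript, differed between groups. In WT 3-day samples *Il2* (63 ± 14.6 FPKM, SD, n = 4) and *Lif* (51.8 ± 10.7) were highest and their ranges overlapped. *Osm* (17.4 ± 1.51), *Csf2* (8.15 ± 3.06), *Csf1* (4.01 ± 0.494) and *Il3* (1.9 ± 0.442) followed, each with a range below that of the gene before it. In HDAC1cKO-HDAC2HET samples *Lif* (62.4 ± 3.75) was highest, *Csf2* (34.3 ± 9.25) and *Osm* (31.5 ± 4) overlapped, and *Il2* (15.8 ± 5.34) had dropped to the fourth place, where its range overlapped that of *Il3* (8.66 ± 3.14) although *Il2* was the higher of both in all 4 samples. *Csf1* (1.74 ± 0.227) was lowest. In both restimulated groups *Il2* stood above all others, with a mean of 237 ± 42.5 FPKM in WT and of 273 ± 97.3 in HDAC1cKO samples (SD over 3 samples each), and *Csf1* was lowest, at 4.17 ± 0.615 and 2.72 ± 0.693. Between them the ranges of *Csf2*, *Lif*, *Osm* and *Il3* overlapped in WT restimulated samples from each gene to the next.

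**Figure D1:**
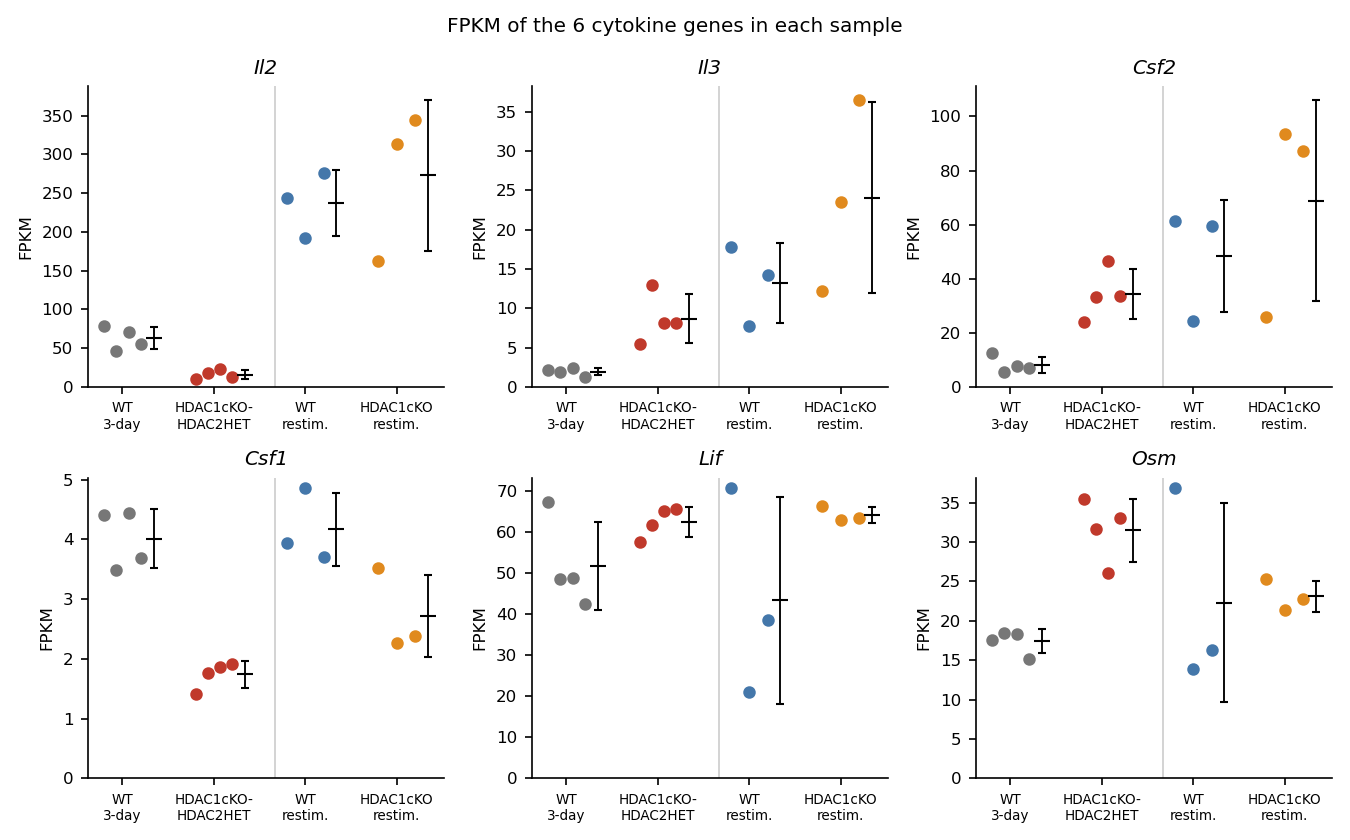
FPKM (linear axis from 0) of each cytokine gene in the 14 samples, with the black bar giving the mean and SD of the group and the grey line separating the experiments. *Il2* lay between 10.2 and 22.5 in HDAC1cKO-HDAC2HET samples, below the WT 3-day range of 46.5 to 78.5, while *Il3* and *Csf2* lay above their WT 3-day ranges.

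The first comparison asked which of these genes differ when HDAC1 is lost and 1 *Hdac2* allele is removed. *Il3* and *Csf2* were higher and *Il2* and *Csf1* lower in HDAC1cKO-HDAC2HET CD4+ T cells, each past a fold change of 2 and an adjusted p of 0.05 (limma on log2(FPKM + 0.1), Benjamini-Hochberg adjustment over 15137 genes). *Osm* was higher by less than 2-fold, and *Lif* did not pass the test. Thus 2 of 6 genes were called higher and 2 of 6 lower, where 5.59% of all genes tested were called higher and 5.58% lower. At an unadjusted limma p under 0.05 stood 5 of the 6, where 56.5% of all genes tested did. How many of all genes had groups without overlap was not counted. The median log2 fold change of the 6 genes was 0.57, beside -0.05 over all genes tested. With *Xist* as a covariate, which follows the genotype here, none of the 4 calls remained and the standard errors grew to between 0.58 and 1.38. The log2 fold changes were then -2.10 for *Il2*, -1.58 for *Csf1*, 2.38 for *Csf2* and 0.40 for *Il3*, and *Xist* level and genotype cannot be told apart. In such bulk samples, fewer producing cells and less RNA per producing cell cannot be told apart.

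*Il2* was at 78.5, 46.5, 71.3 and 55.6 FPKM in the 4 WT 3-day samples and at 10.2, 17.3, 22.5 and 13.2 in the 4 HDAC1cKO-HDAC2HET samples. Every mutant sample lay below every WT sample. The log2 fold change was -2.02 (standard error 0.27, adjusted p = 0.000425), which is 4.05-fold lower, and the 2-sided exact permutation test over 70 arrangements gave p = 0.0286, the smallest it allows. The IL-2 in the culture medium was recombinant human protein and carries no mouse RNA.

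Within the span of *Il2*, the 4 WT 3-day libraries listed 5, 3, 6 and 7 short unnamed loci, all of them in introns and 51 to 334 bp long. No such locus was listed in any of the 4 HDAC1cKO-HDAC2HET libraries. The restimulated libraries, in which the *Il2* level was higher, listed 1 in all, in WT replicate 2. In *Il3*, *Csf1* and *Csf2* none was listed in any library, and in *Lif* and *Osm* 0 to 3 were listed. These loci depend on the assembly of each library and were not tested.

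*Il3* was at 2.11, 1.83, 2.34 and 1.31 FPKM in WT 3-day samples and at 5.39, 12.9, 8.19 and 8.1 in HDAC1cKO-HDAC2HET samples. *Csf2* was at 12.6, 5.54, 7.63 and 6.87 in WT 3-day and at 24, 33.1, 46.5 and 33.6 in HDAC1cKO-HDAC2HET samples. For neither gene did the groups overlap. The log2 fold change was 2.09 for *Il3* (standard error 0.28, adjusted p = 0.000424) and 2.09 for *Csf2* (standard error 0.28, adjusted p = 0.000467), about 4.27-fold and 4.25-fold higher, with an exact permutation p of 0.0286 for each. In WT 3-day samples the Cufflinks bounds of *Il3* lay 27.8% to 37.8% of the value on either side, and those of *Il2* 3.36% to 4.69%.

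*Csf1* was at 4.4, 3.48, 4.45 and 3.68 FPKM in WT 3-day and at 1.42, 1.76, 1.87 and 1.92 in HDAC1cKO-HDAC2HET samples. The groups did not overlap, and the fall was 1.16 on the log2 scale (log2 fold change -1.16, standard error 0.12, adjusted p = 0.00014; exact permutation p = 0.0286). With a pseudocount of 1 in place of 0.1 the value was -0.87 and no longer reached 2-fold.

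*Osm* was at 17.5, 18.4, 18.4 and 15.2 FPKM in WT 3-day and at 35.5, 31.6, 26 and 33 in HDAC1cKO-HDAC2HET samples. All 4 mutant samples were higher than all WT samples, by 0.85 on the log2 scale (standard error 0.11, adjusted p = 0.00029; exact permutation p = 0.0286), a 1.81-fold difference that stayed under the fold change threshold. An adjusted limma p of at most 0.05 was reached by 7837 of the 15137 genes tested. Its neighbour *Lif* was at 67.2, 48.7, 48.9 and 42.5 in WT 3-day and at 57.5, 61.6, 65.1 and 65.6 in HDAC1cKO-HDAC2HET samples. Here the groups overlapped through WT replicate 1, and the log2 fold change of 0.29 had a 95% confidence interval from -0.02 to 0.60 (adjusted p = 0.107; exact permutation p = 0.143). Without WT 3-day replicate 1 the value of *Lif* was 0.42 (limma, adjusted p = 0.00261), still under 2-fold.

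Markers of other cell types were low in both groups of this experiment, but some moved with genotype. The sum of *Cd8a* and *Cd8b1* was 3.28 to 5.96 FPKM in WT 3-day and 11.7 to 15.2 in HDAC1cKO-HDAC2HET samples, nearly all of it *Cd8b1*. The sum of 5 B cell markers was 0.502 to 0.945 and 2.79 to 4.4, most of the latter *Cd79b* (2.76 ± 0.473 FPKM, SD, n = 4), while *Ms4a1* stayed at or under 0.123. The dendritic cell marker sum was 0.598 to 1.08 and 2.17 to 2.94, most of it *Zbtb46*. Of the macrophage or monocyte markers, *Cd68* was at 2.29 to 3.12 in the 3 WT 3-day samples with a value and at 1.86 to 4.5 in HDAC1cKO-HDAC2HET samples, while *Lyz2* was at or under 0.0148. Their part in the cytokine differences was not tested. The sum of 4 mast cell or basophil markers, from cells that can make IL-3, was 0.0878 to 0.204 in WT 3-day and 0.112 to 0.213 in HDAC1cKO-HDAC2HET samples so that the ranges overlapped. NK cell, neutrophil, stromal and erythroid sums were under 1 FPKM in both groups.

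The second comparison asked the same of HDAC1 loss alone after restimulation. None of the 6 genes was called in HDAC1cKO against WT restimulated samples, where 0.0143% of 14027 genes tested were called higher and 0.0642% lower (2 and 9 genes). Of those called, 18.2% were higher, against 30.8% after quantile normalisation and 38.5% after median scaling. At an unadjusted p under 0.05 stood 1996 genes (14.2%), among them 1 of the 6, *Csf1*. The median log2 fold change of the 6 genes was 0.30, beside -0.03 over all genes tested. The sum of *Cd8a* and *Cd8b1* was 3.8 to 4.86 FPKM in WT restimulated and 6.52 to 7.3 in HDAC1cKO samples. The mast cell or basophil sum was 0.226 to 0.571 and 0.18 to 2.53 in these groups. Of its markers, *Kit* reached 1.17 FPKM, *Mcpt8* 0.755 and *Cpa3* 0.57 in HDAC1cKO samples. *Mcpt8* and *Cpa3* were at 0 in all WT restimulated samples. The part of these markers in the cytokine values was not tested. With 3 against 3 samples the exact permutation test over 20 arrangements cannot go below p = 0.1. *Xist* was near 0 in all 3 HDAC1cKO samples and in 1 of 3 WT samples, so *Xist* level and genotype were only partly separate here.

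*Csf1* was at 3.94, 4.87 and 3.7 FPKM in WT restimulated and at 3.52, 2.26 and 2.38 in HDAC1cKO samples. It was the only one of the 6 genes whose groups did not overlap (log2 fold change -0.62, 95% confidence interval -1.14 to -0.09, unadjusted limma p = 0.0284, adjusted p = 0.304, exact permutation p = 0.1). The share of all genes without overlap was not counted, while 14.2% of all genes tested had an unadjusted limma p under 0.05. *Csf1* had a negative fold change in both experiments, with a 2-fold call in the first and no call in the second.

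*Il2* was at 244, 192 and 276 FPKM in WT restimulated and at 162, 313 and 344 in HDAC1cKO samples. The mutant samples lay on both sides of the WT range, and the log2 fold change was 0.15 with a 95% confidence interval from -0.61 to 0.90 (adjusted p = 0.858). A fall of the size seen in the first experiment was outside this interval. *Il3* was at 17.8, 7.7 and 14.2 in WT and 12.2, 23.5 and 36.5 in HDAC1cKO samples (log2 fold change 0.81, 95% confidence interval -0.36 to 1.97, adjusted p = 0.489). *Csf2* was at 61.2, 24.3 and 59.4 in WT and 25.9, 93.5 and 87.2 in HDAC1cKO samples (log2 fold change 0.42, interval -1.06 to 1.90, adjusted p = 0.778). For both, HDAC1cKO replicate 1 lay within the WT range and the other two mutant samples above it, and the intervals also hold differences of more than 2-fold. The value of *Il3* was 0.44 without HDAC1cKO replicate 3 and 0.46 without WT restimulated replicate 2. Without that WT sample the value of *Csf2* was -0.018, and without HDAC1cKO replicate 3 that of *Il2* was -0.058.

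*Lif* was at 70.6, 20.9 and 38.5 FPKM in WT restimulated and at 66.4, 62.8 and 63.4 in HDAC1cKO samples (log2 fold change 0.74, interval -0.28 to 1.75, adjusted p = 0.468). *Osm* was at 36.8, 13.8 and 16.3 in WT and at 25.3, 21.3 and 22.7 in HDAC1cKO samples (0.18, interval -0.70 to 1.07, adjusted p = 0.844). The WT samples spanned the mutant ones in both genes, and without WT restimulated replicate 2 the values were 0.30 and -0.089. With *Xist* as a covariate *Il3* had 1.52, *Csf2* 1.29, *Lif* 1.62 and *Osm* 0.75, and none was called.

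**Figure D2:**
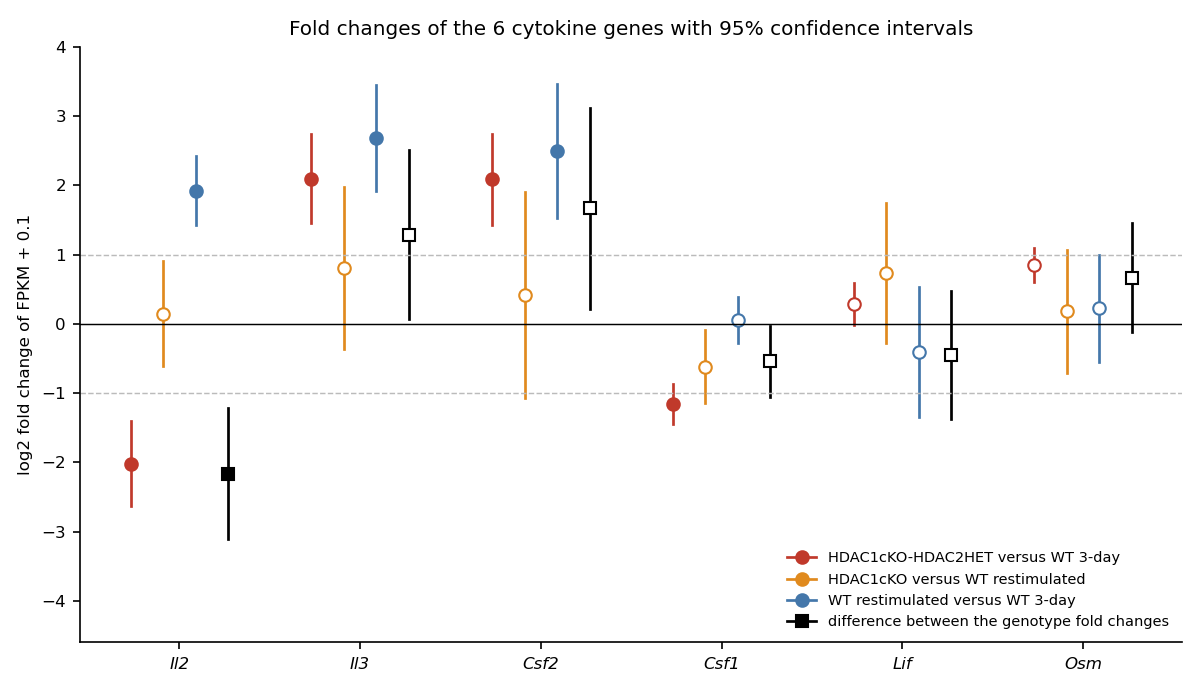
Log2 fold change of FPKM + 0.1 (points) with its 95% confidence interval (lines) for each gene in the 3 comparisons, and the difference between the genotype fold changes (squares). Filled symbols passed the thresholds, dashed lines mark a 2-fold change, and *Il2* alone has a filled square, at -2.16.

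Whether the genotype effect differed between the experiments was tested as the difference between the 2 fold changes over all 14 samples, with a call at an adjusted p of 0.05. Of the 6 genes only *Il2* passed, where 14.6% of 13463 genes tested did. Its difference was -2.16 (standard error 0.43, adjusted p = 0.00657), and it held without each single sample, with values from -2.50 to -1.96. The differences of *Csf2* (1.67, standard error 0.66, adjusted p = 0.12), *Il3* (1.29, standard error 0.56, adjusted p = 0.155) and *Csf1* (-0.54, standard error 0.24, adjusted p = 0.158) were at unadjusted p of 0.0275, 0.0401 and 0.0414 and did not pass. *Osm* (0.67, adjusted p = 0.26) and *Lif* (-0.45, adjusted p = 0.539) did not pass either. Some of these values rested on single samples: *Csf2* had 1.07 and *Csf1* -0.35 without HDAC1cKO replicate 1, *Osm* 0.24 and *Lif* -0.89 without WT restimulated replicate 1, and *Lif* -0.011 without WT restimulated replicate 2. The genotype, the restimulation and the experiment all change between the 2 contrasts and cannot be told apart. The *Xist* level also differed between WT and mutant samples, in unlike ways in the 2 experiments, and its part in these differences was not tested.

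The third comparison set the 3 WT restimulated against the 4 WT 3-day samples, since anti-CD3 is known to induce these cytokines. *Il3*, *Csf2* and *Il2* were called higher, so 3 of 6 genes, where 7.08% of 13031 genes tested were called higher and 3.3% lower, and *Csf1*, *Lif* and *Osm* were not called. The cultures were sequenced in separate experiments, so restimulation and experiment cannot be told apart. The median log2 fold change over all genes was 0.11 here, and of the genes called 68.2% were higher, against 54.9% after quantile normalisation and 57.8% after median scaling. The median of the 6 genes was 1.08. Some marker sums moved with the culture. *Cd68* was at 4.53 to 5.39 FPKM in WT restimulated samples and *Zbtb46* at 1.46 to 3.02, against 0.55 to 1.03 for the latter in WT 3-day samples. The mast cell or basophil sum was 0.226 to 0.571 in WT restimulated samples, all of it *Kit*, with *Mcpt8*, *Cpa3* and *Fcer1a* listed at 0. Their part in the cytokine values was not tested.

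*Il3* rose from the WT 3-day values given above to 17.8, 7.7 and 14.2 FPKM, which is 2.69 on the log2 scale (standard error 0.32, adjusted p = 0.00122), 6.43-fold. *Csf2* rose by 2.5 (standard error 0.41, adjusted p = 0.00453), 5.67-fold, and *Il2* by 1.93 (standard error 0.21, adjusted p = 0.000825), 3.8-fold. In all 3 genes the groups did not overlap, and the exact permutation test over 35 arrangements gave its smallest p, 0.0286. How many of all genes had no overlap was not counted, while 43.7% of all genes tested had an unadjusted limma p under 0.05. Without WT restimulated replicate 2, the WT sample with *Xist* near 0, the values were 3.03, 2.94 and 2.07 with adjusted p of 0.000811, 0.00216 and 0.00221. *Csf1* had a log2 fold change of 0.05 (95% confidence interval -0.28 to 0.39), *Osm* 0.23 (-0.54 to 1.00) and *Lif* -0.41 (-1.34 to 0.53), each with overlapping groups.

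Set side by side, *Il3* and *Csf2* had positive log2 fold changes both in HDAC1cKO-HDAC2HET cells (2.09 and 2.09) and in restimulated WT cells (2.69 and 2.5), while *Il2* had -2.02 in the former and 1.93 in the latter. Both contrasts use the same 4 WT 3-day samples. *Csf2* in HDAC1cKO-HDAC2HET cells, which had not been restimulated, ranged from 24 to 46.5 FPKM, and in WT restimulated cells from 24.3 to 61.2. The ranges of *Il3* were 5.39 to 12.9 and 7.7 to 17.8. Those of *Il2*, 10.2 to 22.5 and 192 to 276, were far apart. These values come from different cultures and experiments and were not tested against each other.

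Ratios within a sample do not depend on the scaling of that sample. The ratio of *Il2* to *Csf2* was 6.25, 8.39, 9.35 and 8.09 in WT 3-day samples and 0.426, 0.523, 0.485 and 0.394 in HDAC1cKO-HDAC2HET samples. It was 3.99, 7.91 and 4.65 in WT restimulated and 6.27, 3.35 and 3.95 in HDAC1cKO samples. *Csf2* exceeded *Il2* in the 4 HDAC1cKO-HDAC2HET samples and in none of the other 10. The ratio of *Il2* to *Il3* showed the same order, with 25.5 to 42.3 in WT 3-day, 1.34 to 2.75 in HDAC1cKO-HDAC2HET, 13.7 to 25 in WT restimulated and 9.42 to 13.3 in HDAC1cKO samples.

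By contrast, the ratio of the neighbours *Csf2* and *Il3* overlapped between all groups. It was 3.04 to 5.95 in WT 3-day, 2.56 to 5.68 in HDAC1cKO-HDAC2HET, 3.15 to 4.19 in WT restimulated and 2.12 to 3.97 in HDAC1cKO samples, while the *Il3* level itself ran from 1.31 to 36.5 FPKM. The ratio of *Lif* to *Osm* was 2.64 to 3.83 in WT 3-day and 1.62 to 2.5 in HDAC1cKO-HDAC2HET samples, so without overlap, and was 1.51 to 2.36 in WT restimulated and 2.63 to 2.94 in HDAC1cKO samples. The lower ratio was thus on the mutant side in the first experiment and on the WT side in the second. These ratios are a description and were chosen after the values were seen.

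**Figure D3:**
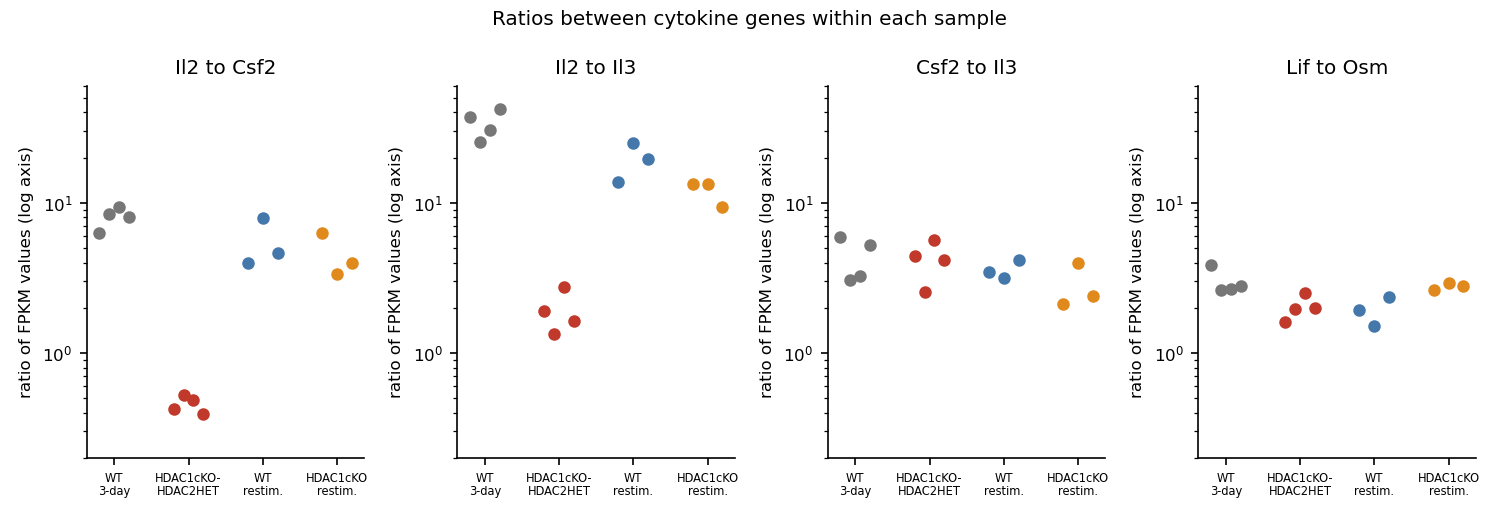
Ratio of FPKM values within each sample (log axis) for 4 pairs of cytokine genes, with points for samples. The ratio of *Il2* to *Csf2* lies between 0.394 and 0.523 in HDAC1cKO-HDAC2HET samples and above 3 in all others, while that of *Csf2* to *Il3* overlaps between the groups.

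The WT restimulated replicates were spread more widely than the WT 3-day replicates for 5 of the 6 genes, all but *Il2*. The share of all genes with a wider spread there was not counted. Other genes had it too, such as *Irf4* (SD 2.55 FPKM in WT 3-day and 68.1 in WT restimulated) and *Pim1* (7.41 and 36.3). Not all did, such as *Runx3* (1.39 and 1.32). The SD of log2(FPKM + 0.1) of *Csf2* was 0.494 in WT 3-day, 0.388 in HDAC1cKO-HDAC2HET, 0.756 in WT restimulated and 1.04 in HDAC1cKO samples. That of *Lif* was 0.28, 0.0879, 0.874 and 0.0432, and that of *Osm* 0.13, 0.19, 0.753 and 0.123, so these gp130 cytokines varied among the WT restimulated samples and hardly among the HDAC1cKO samples. WT restimulated replicate 2 was the lowest of its group for *Il2*, *Il3*, *Csf2*, *Lif* and *Osm* and the highest for *Csf1*. HDAC1cKO replicate 1 was the lowest for *Il2*, *Il3* and *Csf2* and the highest for *Csf1*, *Lif* and *Osm*. WT restimulated replicate 1, the highest for *Lif* and *Osm*, was also the highest for the AP-1 genes *Jun* (38.6 FPKM against 10.2 and 15.1) and *Fosb* (11.9 against 2.95 and 2.32), for *Socs3* (15.8 against 3.31 and 3.4) and for *Pim1* (105 against 41.9 and 42.3). These last genes were picked out after their values were seen.

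**Figure D4:**
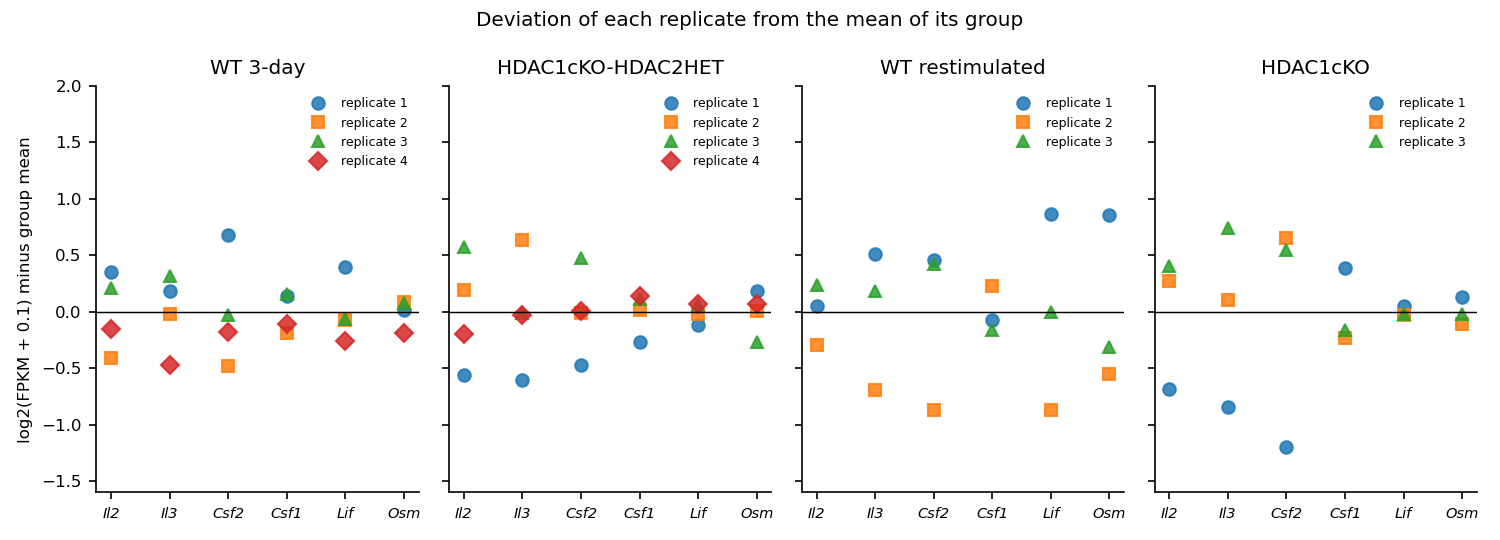
Deviation of each replicate from its group mean on the log2(FPKM + 0.1) scale, with 1 panel per group and 1 symbol per replicate. In WT restimulated samples replicate 2 lies below 0 in all genes but *Csf1*, and in HDAC1cKO samples replicate 1 lies lowest in *Il2*, *Il3* and *Csf2*.

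Of the 11 receptor subunits for these cytokines, 5 could be tested in each comparison. In HDAC1cKO-HDAC2HET cells 1 was called higher and 1 lower, where 5.59% of all genes tested were called higher and 5.58% lower. *Il2rb*, the signalling beta chain of the IL-2 receptor, was at 174 ± 14 FPKM (SD, n = 4) in WT 3-day and 354 ± 18.2 (SD, n = 4) in HDAC1cKO-HDAC2HET samples, the lowest of which was at 337 (log2 fold change 1.03, standard error 0.07, adjusted p = 1.12e-05). *Csf2ra*, the GM-CSF-binding alpha chain, was at 12.2, 12.4, 14.2 and 14.5 in WT 3-day and 4.78, 5.38, 4.12 and 4.36 in HDAC1cKO-HDAC2HET samples (log2 fold change -1.50, standard error 0.10, adjusted p = 1.25e-05). Of the chains tested, *Csf2ra* was thus lower where *Csf2* was higher, and *Il2rb* higher where *Il2* was lower. The other chains did not share this inverse pattern, since *Il2ra* was lower along with *Il2* and *Il3ra* did not pass where *Il3* was higher.

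*Il2ra*, the high-affinity alpha chain, fell from 330 ± 22.9 to 222 ± 13.7 FPKM (SD, n = 4 each; log2 fold change -0.57, adjusted p = 0.000168), under the 2-fold threshold. *Il3ra* (12.9 ± 2.1 and 15.6 ± 1.16; adjusted p = 0.0807) and *Il6st* (7.41 ± 1.02 and 6.17 ± 0.592; adjusted p = 0.0884) did not pass. In HDAC1cKO against WT restimulated samples limma called none of the 5, with log2 fold changes from -0.57 for *Il6st* to 0.48 for *Il3ra*. At an unadjusted p under 0.05 stood 3 of the 5, where 14.2% of all genes tested did. *Il2rb* (132 ± 17.1 and 143 ± 20.8 FPKM, SD, n = 3) and *Csf2ra* (12.1 ± 3.61 and 13.3 ± 4.39) lay close between these groups, and the difference between the genotype fold changes was called for both, at 0.92 (adjusted p = 0.0019) and -1.63 (adjusted p = 0.00644). That difference was called for 14.6% of all genes tested. Between the WT cultures none was called, with 3 at an unadjusted p under 0.05, where 43.7% of all genes tested were, and *Il2rb* was lower by less than 2-fold (log2 fold change -0.40, adjusted p = 0.0261).

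The other 6 subunits gave no test. *Csf2rb*, the beta chain shared by the GM-CSF and IL-3 receptors, and *Csf2rb2*, a beta chain of the IL-3 receptor only, were at or under 0.168 FPKM in all samples. *Lifr* and *Osmr*, the partners of gp130, were at or under 0.146 FPKM in the samples with a value. *Csf1r*, the receptor of M-CSF, and *Il2rg*, the common gamma chain, gave no value by name or position and were not analysed here.

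Among 19 genes of the JAK-STAT pathway used by these receptors, 17 were tested in the first comparison, of which 2 were called higher and 2 lower, and their median log2 fold change was -0.05, as over all genes. The shares of all genes tested were 5.59% called higher and 5.58% lower. *Socs3*, a feedback inhibitor of gp130 signalling, was at 5.72, 5.95, 5.53 and 5.23 FPKM in WT 3-day and 23.8, 21.7, 17.5 and 20.6 in HDAC1cKO-HDAC2HET samples (1.87, adjusted p = 4.22e-06). *Pim1*, a kinase gene induced by STAT factors, rose by 1.04 (adjusted p = 6.27e-05). The kinase genes *Jak2* (-1.51, adjusted p = 8.48e-06), which serves the GM-CSF and IL-3 receptors, and *Jak3* (-1.31, adjusted p = 1.52e-06), which serves the common gamma chain, fell. In the second comparison limma called 0 of 18, with 2 at an unadjusted p under 0.05, where 14.2% of all genes tested were. Between the WT cultures *Stat5a* rose (1.03, adjusted p = 0.0139) and the survival gene *Bcl2* fell (-1.51, adjusted p = 3.64e-05), 1 of 15 in each direction. There 7.08% of all genes tested were called higher and 3.3% lower. The difference between the genotype fold changes was called for 3 of 17, *Jak2* (-1.21, adjusted p = 0.00146), *Jak3* (-1.01, adjusted p = 0.000171) and *Pim2* (1.22, adjusted p = 0.0117), where 14.6% of all genes tested were called.

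Of 35 regulators known at these cytokine genes, 33 were tested in the first comparison, and 5 were called higher and 4 lower. Over all genes tested 5.59% were called higher and 5.58% lower. The median log2 fold change of the list was -0.28, beside -0.05 over all genes tested. The highest was *Prdm1*, encoding the repressor Blimp-1, which is known to act on *Il2*. It was at 0.143, 0.11, 0.0889 and 0.0902 FPKM in WT 3-day and 3.26, 3.85, 2 and 2.69 in HDAC1cKO-HDAC2HET samples (3.84, adjusted p = 5.59e-06). *Fosb*, an AP-1 component, was at 1.38, 1.02, 2.05 and 0.986 in WT 3-day and 0.174, 0.186, 0.229 and 0.366 in HDAC1cKO-HDAC2HET samples (-2.08, adjusted p = 0.00038). The lineage factor genes *Tbx21* (1.83, adjusted p = 0.000181) and *Runx3* (1.59, adjusted p = 0.000136) rose. *Egr3* (-1.82, adjusted p = 1.22e-06), an antigen receptor-induced factor, fell, as did *Zfp36l1* (-1.75, adjusted p = 6.92e-07), which encodes a protein that marks AU-rich cytokine mRNAs for decay. The other called genes were *Ikzf3*, *Jun* and *Zfp36*.

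In the second comparison limma called 0 of 34 regulators, with 10 at an unadjusted p under 0.05, where 14.2% of all genes tested were. *Tbx21* had the log2 fold change 2.41 there (adjusted p = 0.329), with WT restimulated samples spread from 3.04 to 46.5 FPKM and HDAC1cKO samples from 66 to 70.9. Between the WT cultures 1 of 28 was called, *Jun*, at 5.55, 3.75, 4.72 and 4.44 FPKM in WT 3-day and 38.6, 10.2 and 15.1 in WT restimulated samples (1.97, adjusted p = 0.0143). There 7.08% of all genes tested were called higher and 3.3% lower. The difference between the genotype fold changes was called for 8 of 33, where 14.6% of all genes tested were called. *Prdm1* (3.08) and *Runx3* (1.31) were positive and 6 negative, of which *Egr3* (-1.09) and *Egr1* (-1.01) were the largest in size. The loci of *Prdm1*, *Zfp36* and *Socs3* were not alike in all 14 libraries, so their differences between the experiments rest on unlike loci.

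**Figure D5:**
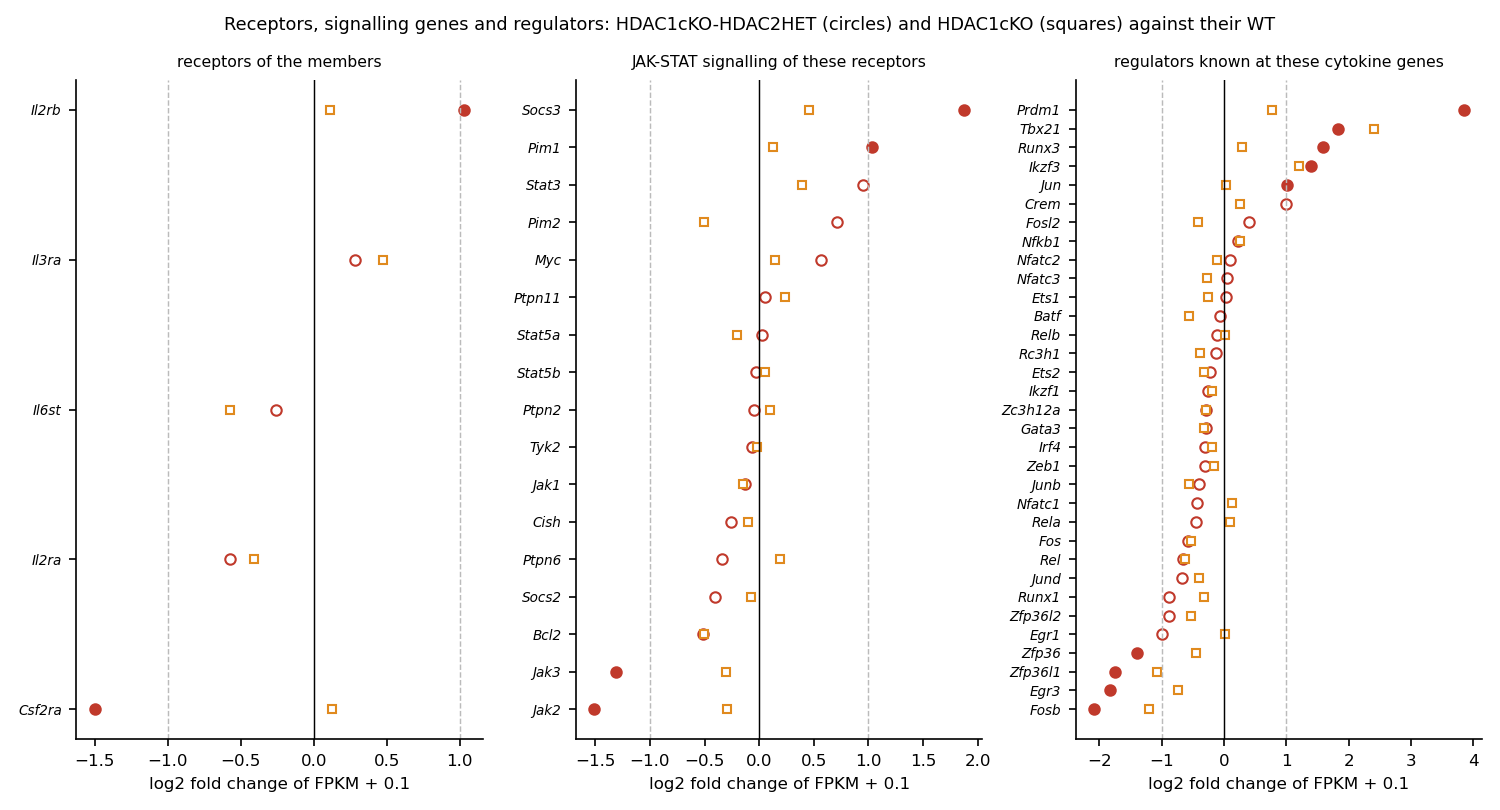
Log2 fold change of FPKM + 0.1 of the tested receptors, JAK-STAT genes and regulators in HDAC1cKO-HDAC2HET (circles) and HDAC1cKO (squares) samples against WT, with filled symbols past the thresholds and dashed lines at a 2-fold change. Filled circles are 2 receptors, 4 JAK-STAT genes and 9 regulators, and no square is filled.

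Of 21 related cytokines, most were near 0, and 6, 10 and 8 could be tested in the 3 comparisons. Limma called none in either genotype comparison, with 1 of 6 and 2 of 10 at an unadjusted p under 0.05, where 56.5% and 14.2% of all genes tested were. Between the WT cultures the median log2 fold change of the list was 1.08, the same as that of the 6 cytokine genes. The only one called, where 7.08% of all genes tested were called higher, was *Il13*, a type 2 cytokine gene, at 0.274, 0.139, 0.262 and 0 FPKM in WT 3-day and 1.35, 1.1 and 0.626 in WT restimulated samples (2.18, adjusted p = 0.0202). *Clcf1*, of the IL-6 family, had an adjusted p of 0.0239 in the first comparison with a log2 fold change of 0.41.

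Protein-coding genes within 100000 bp of the 6 loci were looked at after the cytokine values were known. *Acsl6*, which neighbours *Il3* and *Csf2*, was at 1.19, 1.02, 1.6 and 1.25 FPKM in WT 3-day, at 2.31, 2.38, 2.95 and 2.34 in HDAC1cKO-HDAC2HET and at 2.01, 3.52 and 3.41 in WT restimulated samples. It had log2 fold changes of 0.94 in the first comparison (adjusted p = 0.000935, under 2-fold), -0.40 in the second (adjusted p = 0.682) and 1.15 in the third (adjusted p = 0.0123, called). *Ahcyl1*, beside *Csf1*, had -0.30 in the first comparison (adjusted p = 5.03e-05). Near *Lif* and *Osm*, *Hormad2* was called higher in the first comparison (1.91, adjusted p = 0.00918), from 0.0905 to 0.477 FPKM in WT 3-day to 0.675 to 2.38 in HDAC1cKO-HDAC2HET samples. *Ccdc157* (0.95, adjusted p = 0.000167) and *Castor1* (0.87, adjusted p = 4.43e-05), near the same pair, were higher there by less than 2-fold. *Il21*, beside *Il2*, was not tested in any of these comparisons.

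The protein-coding genes with the most similar pattern were ranked by the root mean square difference of their centred log2 values over the 14 samples, among 9003 genes with a mean of at least 1 FPKM. The root mean square of the centred values themselves was 1.71 for *Il2*, 1.39 for *Il3*, 1.28 for *Csf2*, 0.542 for *Csf1*, 0.454 for *Lif* and 0.453 for *Osm*. The differences therefore do not rank likeness between one cytokine gene and another. For *Il2* they were the TNF family ligand genes *Cd70* (0.434) and *Tnfsf11* (0.517), and *Ccn1* (0.558). *Cd70* was at 4.92, 2.58, 5.27 and 3.25 FPKM in WT 3-day, 1.07, 1.39, 2.35 and 0.878 in HDAC1cKO-HDAC2HET, 16.4, 26.1 and 43.8 in WT restimulated and 11.6, 30.8 and 25.4 in HDAC1cKO samples. It was thus lowest in HDAC1cKO-HDAC2HET and high in both restimulated groups, as *Il2* was. For *Il3* they were *Slc15a3* (0.394), *Serpinb6b* (0.394) and *Csf2* (0.432), and for *Csf2* they were *Serpinb6b* (0.403), *Il3* (0.432) and *Rhbdf1* (0.432), so each of these neighbours was among the other's nearest. For *Csf1* the nearest were *Tbl1xr1* (0.166), *Ctso* (0.169) and *Crtc1* (0.188), for *Lif* *Slc6a9* (0.242), *Olfr56* (0.247) and *Litaf* (0.273), and for *Osm* *Csrnp1* (0.135), *Rnf19b* (0.166) and *Cars* (0.187). *Csrnp1*, like *Osm*, stood out in WT restimulated replicate 1, at 62.7 FPKM against 28.2 and 29.4.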

How the data were processed

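RNA-Seq libraries of 14 samples were used. Reads were aligned to mm10 by the authors (TopHat), and Cufflinks gave the deposited FPKM values. The submitters' processing notes also list FastQC, STAR 2.5.2b, Subread 1.5.1, R 3.4 and edgeR. FPKM is scaled by depth and transcript length, so no counts were used. Rows without a gene name were matched by position where they shared at least 0.8 of the joint span with the GENCODE locus. Depth was estimated from the Cufflinks bounds of low genes, of which 74.8% to 85.5% per library gave a whole fragment number within 0.05.

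Each comparison was fitted with limma 3.58.1 in R 4.3.3 (intensity trend) on log2(FPKM + 0.1) where the mean FPKM reached 0.1, with Benjamini-Hochberg adjustment. A call needed a 2-fold change or more together with an adjusted p up to 0.05, and the difference between the genotype fold changes only the latter. Adding 0.1 understates the change of low genes. Single genes were also tested with 2-sided exact permutation tests. The WT and HDAC1cKO-HDAC2HET samples were separate cell batches prepared on 1 day; that the restimulated replicates came from separate animals is not given in the sources used here, so p-values measure the spread between samples. The fits were tested on simulated data. Results were recomputed with other scalings, filters, pseudocounts, variance models, weights, locus matching and covariates, and without each sample. The strand setting of Cufflinks is not given in the sources used here. The members and gene lists were chosen with earlier results of these data known. The genes named were the 6 cytokines, their receptor subunits, *Hdac1* and *Hdac2*, list genes past the thresholds (up to 6 per list and comparison) and the 3 nearest patterns, with exceptions said to be chosen after their values were seen. Promoter sequences were from RefSeq (GRCm38.p6), with entries for all members but *Osm*.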

Additional observations from a re-analysis of the deposited data

Results flagged for a closer look

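In the 6 cytokine genes no sample of a 4-sample group stood apart from its group by the gap to the nearest other sample (Dixon's test at the 95% level). Among 68 such groups of other genes 4 held such a sample, where chance gives about 1 in 20. In HDAC1cKO-HDAC2HET these were *Runx3* (67.6 FPKM in replicate 1, with the others at 41 to 41.9), *Acsl6* (2.95 in replicate 3) and *Ikzf3* (6.21 in replicate 3), and in WT 3-day *Zfp36l1* (61.6 in replicate 2). The genotype effect differed between the experiments, by the test of the difference over all 14 samples (passed by 14.6% of all genes tested), for *Il2* (-2.16 on the log2 scale). It also differed for the receptor genes *Il2rb* (0.92) and *Csf2ra* (-1.63), for the signalling genes *Jak2* (-1.21), *Jak3* (-1.01) and *Pim2* (1.22), and for the regulators *Prdm1* (3.08), *Runx3* (1.31), *Egr3* (-1.09), *Egr1* (-1.01), *Zfp36* (-0.95), *Zfp36l1* (-0.67), *Nfatc1* (-0.56) and *Rela* (-0.54). Genotype, restimulation and experiment cannot be told apart in these values, and the part of the *Xist* level in them was not tested.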

How the results depend on the processing

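The 24 values of the 6 cytokine genes were recomputed under 444 alternatives, of which 429 kept direction and call. A call needs both thresholds in the comparisons of groups, and among values not called the adjusted p moved across 0.05 for *Lif* in the first comparison (0.035 with median scaling, 0.00261 without WT 3-day replicate 1) and for *Osm* there (0.474 with the *Xist* covariate), and reached 0.05 for *Csf1* in the second (all 14 samples in 1 fit). The calls of the first comparison were lost for *Csf1* with a pseudocount of 1 (-0.87, under 2-fold) and for *Il2* (-2.10), *Il3* (0.40), *Csf1* (-1.58) and *Csf2* (2.38) with *Xist* as a covariate, which separates the genotypes completely there, so the covariate and the genotype cannot be told apart. The 10 values that changed sign were not called. In the second comparison these were *Csf2* (-0.018) and *Osm* (-0.089) without WT restimulated replicate 2 and *Il2* (-0.058) without HDAC1cKO replicate 3, and leaving out 1 sample gave up to 1.02, 0.61 and 0.48 for these. Between the WT cultures they were *Csf1* with quantile normalisation (-0.096), median scaling (-0.070), without WT 3-day replicate 2 (-0.0083) and without WT restimulated replicate 2 (-0.060), *Osm* with array quality weights (-0.040) and without WT restimulated replicate 1 (-0.20), and *Lif* without WT restimulated replicate 2 (0.031). Leaving out 1 sample gave at most 0.13 for *Csf1*, 0.50 for *Osm* and at least -0.84 for *Lif* there. Where no reason is given, the cause was not tested. Genes called higher and lower moved from 846 and 844 to 416 and 326 (pseudocount of 1), 530 and 502 (mean FPKM of at least 1, so fewer genes tested) and 11 and 6 (*Xist* covariate) in the first comparison, and from 923 and 430 to 456 and 206 (pseudocount of 1) and 575 and 273 (mean of at least 1) between the WT cultures. In the second comparison the 2 genes called higher became 1 (pseudocount of 1), 0 (no filter), 9 (mean of at least 1), 4 (quantile normalisation), 5 (median scaling), 0 (limma without the trend), 11 (array quality weights) and 1 (loci matched at 0.5 of the joint span), and the 2 higher and 9 lower became 145 and 148 (all 14 samples in 1 fit) and 31 and 46 (*Xist* covariate). Leaving out 1 sample gave 2 to 23 higher and 9 to 30 lower, the most without WT restimulated replicate 3. The replicate block gave 0 higher and 5 lower there and 822 and 818 in the first comparison and changed no call of the 6 genes. Same-numbered samples correlated at -0.0136 to 0.0425 in their deviations from the group means. Genes down to a mean of 0.1 FPKM were included, so pairing by number was not seen but is not excluded. At this depth the Cufflinks bounds of *Il3* in WT 3-day samples were 27.8% to 37.8% of the value.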
